A study of Mus musculus with 8 samples.

Results

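The collagen genes were taken as every gene of the count table whose symbol reads Col, a number, a, and a number, with at least 10 estimated counts in at least 4 mice. Of 44 such symbols among the 54307 genes of the table, 41 met this rule. The 3 that did not were *Col10a1*, *Col24a1* and *Col7a1*, each of which reached 10 counts in at most 1 mouse. The 41 members comprised 10 fibrillar collagens, 6 type IV chains of basement membranes, 6 type VI chains, 9 FACITs (collagens with interrupted triple helices that sit on fibrils), 4 transmembrane collagens, 2 multiplexins, 2 short chain collagens and 2 others.

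RNA-seq was performed on microdissected periventricular tissue, which holds the ventricular-subventricular zone (V-SVZ), the stem cell niche beside the lateral ventricle, from 1 hemisphere of each mouse. *Lrig1* KO mice are homozygous for CreERT2 knocked into the *Lrig1* locus, a constitutive loss of this cell surface inhibitor of growth factor signalling in every cell type, and were compared with littermates homozygous for the wild-type (WT) allele. All 8 mice were 8 weeks old and on the 129-Elite strain background, and each was a separate animal. The WT group held 3 females and 1 male, and the KO group held 2 females and 2 males.

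Collagens are secreted or membrane proteins in which 3 chains wind into a helix. Fibrillar collagens build the cables of connective tissue, type IV chains form the sheet of basement membranes around blood vessels and beneath the pia, and type VI chains form beaded filaments that link basement membranes with the matrix around them. In adult brain, collagen is known chiefly from vessels, meninges and choroid plexus, and the V-SVZ also holds branched basement membrane structures called fractones that contact its stem cells.

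The total of the gene counts lay between 47887437 and 74482334 per mouse. *Lrig1* served as the check of the labels, at 13.5 to 45.6 CPM (counts scaled to the size of each library by TMM normalization) in WT and 1.17 to 4.15 CPM in KO, without overlap. Its log2 fold change was -3.80, with an adjusted p of 0.286 in edgeR, so the targeted gene itself did not pass the threshold used here. The paper, which used DESeq2, reports *Lrig1* as the lower gene with the strongest significance. WT 2 and KO 3, both male, had the highest summed levels of 10 cortical excitatory neuron markers (3872 and 1931 CPM, against 654 to 1422 in the other 6 mice) and of 10 fibroblast and meningeal markers (58.2 and 57.6 CPM, against 20.8 to 32.2). WT 2 also had the lowest summed level of 10 striatal neuron markers, at 2573 CPM against 4031 to 8032. No marker of the 7 lists was at 0 in every mouse, the choroid plexus list included. In bulk tissue, fewer cells of a type and less RNA per cell cannot be told apart.

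To ask which collagens are transcribed in this tissue, levels were compared between genes as TPM, which divides by transcript length. *Col9a2* and *Col25a1* had the highest means over the 8 mice, at 14.9 ± 2.60 and 14.0 ± 3.59 TPM (SD, n = 8). *Col9a2* encodes a chain of type IX collagen, a FACIT, and *Col25a1* encodes a transmembrane collagen made by neurons. The level of *Col9a2* leaned on a 752-base non-coding transcript that carried 46.6% of the gene's counts, since the same count weighs more per base on a short transcript. The partner chain *Col9a3* lay at 4.59 ± 0.850 TPM, and the ratio of *Col9a2* to *Col9a3* ranged from 2.13 in WT 4 to 5.28 in WT 1. This ratio includes the non-coding transcript. The protein-coding transcript of *Col9a2* lay between 1.86 TPM in KO 4 and 2.98 TPM in KO 3. It was below the main protein-coding transcript of *Col9a3* (2.895 TPM in WT 3 to 5.63 TPM in WT 4) in every mouse.

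The type IV chains *Col4a2* (5.10 ± 0.811 TPM) and *Col4a1* (5.08 ± 0.822 TPM), which assemble together in vascular basement membranes, came next. Their ratio stayed between 0.895 and 1.09 in the 8 mice, the narrowest range of the 8 pairs of chains compared. These genes lie head to head and their first exons overlap, so that reads there cannot be assigned to one or the other without strand. In GRCm38 this overlap is a short stretch at the starts of main transcripts of 6615 (*Col4a1*) and 6450 (*Col4a2*) bases. The other type IV chains were lower. *Col4a5* lay at 0.521 TPM, *Col4a6* at 0.145, *Col4a3* at 0.0490 and *Col4a4* at 0.0451, the last 2 being the lowest of the 41 members and the chains known from kidney.

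Among type VI chains, *Col6a1* (4.96 ± 0.600 TPM) and *Col6a2* (3.01 ± 0.593 TPM) exceeded *Col6a3* (0.299 ± 0.156 TPM), the long chain that completes the classical molecule. The *Col6a1* to *Col6a2* ratio lay between 1.44 and 2.01, whereas that of *Col6a1* to *Col6a3* spread from 10.2 to 33.9. The lowest ratio, in WT 4, leaned on a 646-base *Col6a3* transcript annotated as retaining an intron. With 4.5 counts it gave 0.383 of the 0.598 TPM of the gene in that mouse, and in WT 3 0.221 of 0.383 TPM. WT 2 had 0.0 counts on it and a ratio of 10.3. The leading fibrillar collagens were *Col11a2* (2.80 ± 0.777 TPM), *Col1a2* (2.56 ± 0.999 TPM) and *Col1a1* (0.970 ± 0.475 TPM). *Col1a2* was above *Col1a1* in every mouse, by 1.54 to 4.88 times, and *Col11a2* was 6.38 to 12.2 times as high as *Col11a1*. Summed over their members, the fibrillar, type IV and type VI classes made up 11.9%, 15.2% and 13.4% of collagen TPM, and FACITs 32.4%. The FACIT share leaned on the 752-base non-coding transcript of *Col9a2*. That transcript gave 15.83 of the 25.06 TPM of the class in WT 1 and 11.39 of 24.86 TPM in WT 2. Without it the FACIT share would be lower and the shares of the other classes higher. Shares without it were not computed.

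The comparison of KO with WT asked whether loss of LRIG1 went with a change in these genes. Of the 41 members, 40 were tested, *Col2a1* having too few counts for the filter of the test. With edgeR (quasi-likelihood fit, p adjusted by Benjamini-Hochberg over 17669 genes), 0 of the 40 passed an adjusted p under 0.1, against 0.00566% of all genes. Since *Lrig1* was not called in this fit either, the count of 0 does not show that collagens did not differ. DESeq2 called 0 of the 40 as well, against 0.0736% of all genes. With sex as a covariate edgeR called 0, against 0.0113% of all genes, and DESeq2 called 1, *Col6a5*, against 1.2%.

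Below an unadjusted p of 0.05 were 3 of 40 members (7.5%), *Col6a4*, *Col11a2* and *Col6a5*, beside 1.88% of all genes in edgeR. For the 2 that were lower in KO the share of all genes was 1.08%, and for the 1 that was higher 0.809%. The same 3 members had an unadjusted p under 0.05 in DESeq2, beside 2.22% of all genes. They did so with sex as a covariate too, where the share of all genes rose to 6.95% in edgeR and 7.47% in DESeq2, close to that of the members. The KO and WT values, as CPM, did not overlap for 2 of them (5.0%), *Col6a4* and *Col11a2*, both lower in KO. The share of all genes was 1.53% in either direction and 0.877% with KO below WT. As TPM the groups did not overlap for *Col6a4* but did for *Col11a2*. The log2 fold change of KO over WT was below 0 for 28 of 40 members (70.0%), and for 50.3% of all genes. The median was -0.11 over the members and -0.00094 over all genes. Apart from *Col6a4* and *Col6a5*, no tested member differed by more than 0.57 on the log2 scale.

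**Figure D1:**
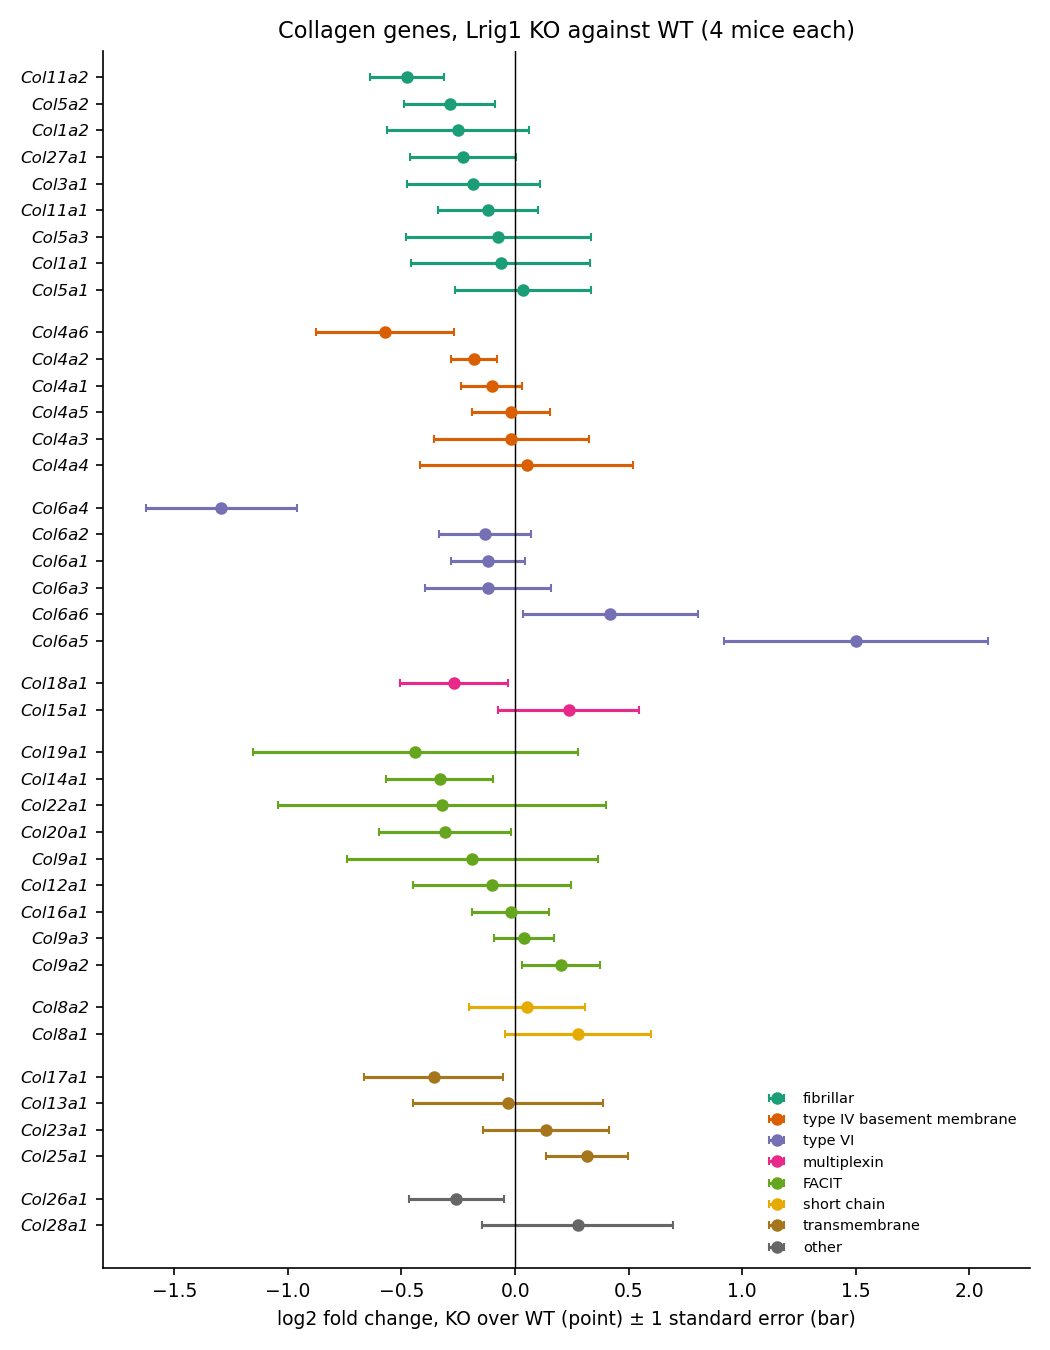
Log2 fold change of KO over WT (x axis) for the 40 tested collagen genes, by class, with 1 standard error to each side. *Col6a4* lies farthest left at -1.29 and *Col6a5* farthest right at 1.50, and most other bars cross or come near 0.

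Of the 3 classes to be compared, fibrillar collagens had the largest share of members below 0, 8 of 9, with a median log2 fold change of -0.18. For type IV collagens 5 of 6 were below 0 with a median of -0.061, and for type VI collagens 4 of 6 with a median of -0.12. These medians changed with single mice. With 1 mouse left out, the fibrillar median ranged from -0.34 (without WT 1) to -0.053 (without WT 4), the type IV median from -0.19 (without WT 2) to 0.039 (without WT 4) and the type VI median from -0.13 (without KO 1) to -0.034 (without WT 2). Without WT 2 the type IV median was below the fibrillar one, which was then -0.13. The summed level of the fibrillar class was 27.6, 40.8, 39.5 and 48.9 CPM in WT 1 to WT 4 and 28.0, 31.6, 38.5 and 30.7 CPM in KO 1 to KO 4. WT 1 lay below all 4 KO mice, and WT 2, WT 3 and WT 4 lay above them. The means were 39.2 ± 8.80 and 32.2 ± 4.49 CPM (SD, n = 4 each), a ratio of 0.822.

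The summed type IV level was 49.6, 47.1, 59.8 and 65.0 CPM in WT and 53.3, 52.2, 46.7 and 48.9 CPM in KO. WT 3 and WT 4 stood above all KO mice, and WT 1 and WT 2 lay among them. The means were 55.4 ± 8.45 and 50.3 ± 3.03 CPM (SD, n = 4 each), a ratio of 0.907.

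For type VI the sums were 29.4, 21.6, 32.2 and 31.0 CPM in WT and 31.1, 25.5, 24.4 and 25.9 CPM in KO. The groups overlapped, WT 2 being the lowest mouse and KO 1 among the highest. The means were 28.5 ± 4.75 and 26.7 ± 2.98 CPM (SD, n = 4 each), a ratio of 0.936. Summed as TPM, the same ratio was 0.80, and 0.892 without *Col6a4*. Thus, the 3 classes had ratios below 1 on both scales, with overlapping mice on the CPM scale in each.

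**Figure D2:**
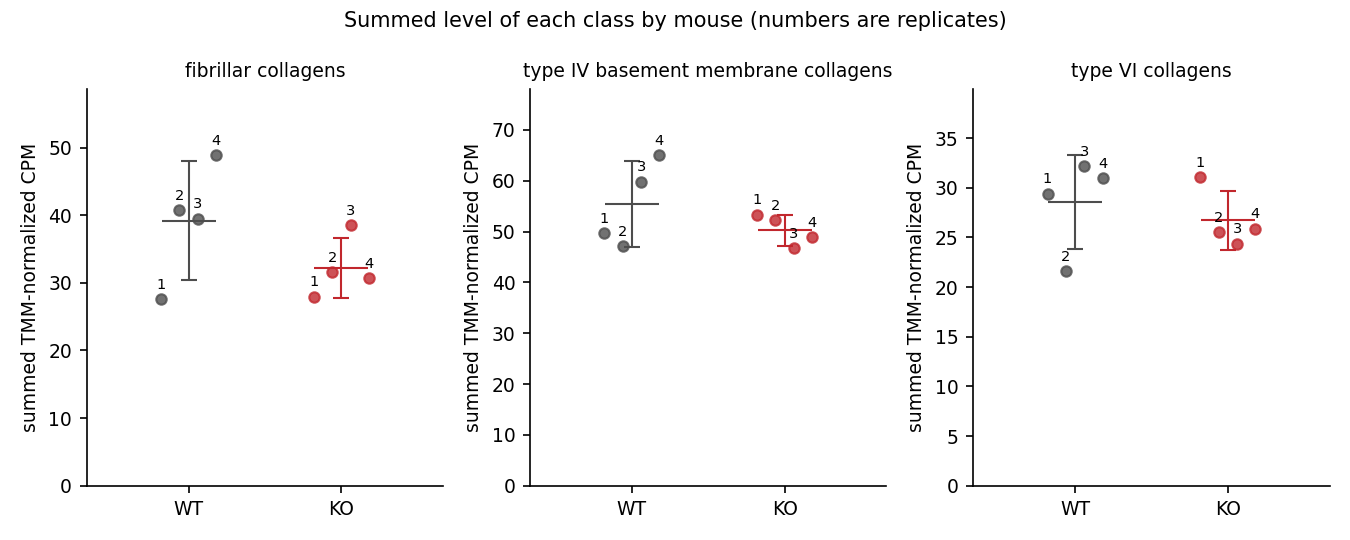
Summed TMM-normalized CPM (y axis) of the fibrillar, type IV and type VI collagens in each WT (grey) and KO (red) mouse, with the mean and SD of each group and replicate numbers above the points. The groups overlap in each class, and WT 4 is the highest mouse for the fibrillar and type IV classes at 48.9 and 65.0 CPM.

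The other lists for vessels moved as follows. Of 10 mural cell markers, 9 were below 0 with a median log2 fold change of -0.23, and their summed level was 200.0 to 279 CPM in WT and 176 to 224 CPM in KO. One of them, *Pdgfrb*, a receptor of pericytes, had an unadjusted p under 0.05 in edgeR (log2 fold change -0.33, SE 0.14), beside 1.88% of all genes. It did not pass after adjustment, and its groups overlapped, with WT 1 (22.3 CPM) and WT 2 (23.5 CPM) below KO 1 (24.6 CPM). Of 10 endothelial markers, 3 were below 0 with a median of 0.029, and sums of 186 to 252 CPM in WT and 204 to 229 CPM in KO. Of 10 fibroblast and meningeal markers, 7 were below 0 with a median of -0.18. The part of these cell types in the collagen values was not tested.

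Type VI collagen held both of the largest differences. *Col6a4*, *Col6a5* and *Col6a6* are neighbours on chromosome 9 and on the same strand, and encode long chains that resemble the *Col6a3* chain. *Col6a4* stood in the study's own list of changed genes, which was drawn from these mice, so that its difference here is not independent of that list.

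*Col6a4* (ENSMUSG00000032572.10) was measured at 1.15, 1.26, 2.09 and 1.04 CPM in WT 1 to WT 4 and 0.371, 0.762, 0.716 and 0.394 CPM in KO 1 to KO 4. Every WT mouse was above every KO mouse. The means were 1.39 ± 0.478 and 0.561 ± 0.207 CPM (SD, n = 4 each), and the log2 fold change was -1.29 (SE 0.33, unadjusted p = 0.00385, adjusted p = 1.0 in edgeR). Counts were low, at 51 to 98 in WT and 19 to 54 in KO. In 17 of 17 other fits the sign was the same and the unadjusted p stayed under 0.05, with log2 fold changes between -1.47 and -1.03 and adjusted p between 0.101 and 1.0 in edgeR or DESeq2.

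The transcripts that carried these counts were then examined, a step chosen after the values were seen. The full-length protein-coding transcript of 7371 bases held only 13.5% of the estimated counts. It had 4.4, 4.4, 11.1 and 2.2 counts in WT and 4.5, 12.4, 12.3 and 7.2 counts in KO, a total of 22.1 and 36.4. The lower level in KO was thus not seen on this transcript.

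A transcript of 1086 bases, annotated as a target of nonsense-mediated decay, held 52.5% of the counts. It had 36.7, 41.5, 57.2 and 35.7 counts in WT and 8.8, 22.5, 25.0 and 0.0 counts in KO. A non-coding transcript of 1721 bases held 33.6%, with 22.9, 31.1, 29.6 and 13.1 counts in WT and 5.8, 10.1, 16.7 and 16.2 counts in KO. For the former all WT mice lay above all KO mice. For the latter WT 4 lay below KO 3 and KO 4 in counts, which are not scaled to library size. As TPM, WT 4 at 0.2715 lay above KO 3 at 0.2118 and KO 4 at 0.2359. On that scale all WT mice lay above all KO mice for this transcript too. The totals, also unscaled, went from 171.1 to 56.3 and from 96.7 to 48.8 counts between WT and KO. No test was run on transcripts, and Salmon shares reads between transcripts that hold the same bases, so these splits are estimates.

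Each of the 2 short transcripts has 2 stretches that the full-length one lacks. The first of each, from Gencode M21 of GRCm38, is printed since most *Col6a4* counts fell on those transcripts. Capitals mark the 10 bases on each side of the junction that the 1086-base transcript does not share, and the first bases of the 1721-base transcript that the full-length one lacks.
1086-base transcript, bases 273 to 332: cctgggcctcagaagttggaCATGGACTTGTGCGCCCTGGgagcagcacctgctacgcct
1721-base transcript, bases 1 to 61: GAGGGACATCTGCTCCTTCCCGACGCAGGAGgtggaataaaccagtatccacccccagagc
Of the bases of the 1086-base transcript 98.4% are also in the full-length transcript, and of the 1721-base transcript 38.7%.

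**Figure D3:**
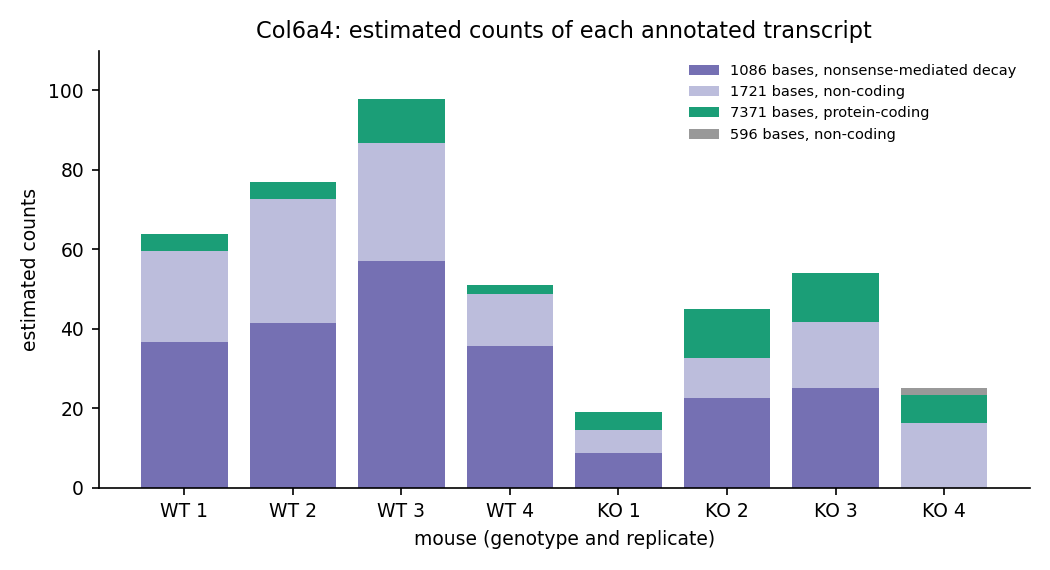
Estimated counts (y axis) of each annotated *Col6a4* transcript, stacked, in each mouse (x axis). The 1086-base and 1721-base transcripts make up most of each WT bar, while the 7371-base protein-coding transcript stays between 2.2 and 12.4 counts in all 8 mice.

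*Col6a5* (ENSMUSG00000091345.10) had 0.612, 0.164, 0.171 and 1.16 CPM in WT and 1.76, 1.78, 1.03 and 1.39 CPM in KO. WT 4 lay above KO 3, and the other 3 WT mice below all KO mice. The means were 0.527 ± 0.472 and 1.49 ± 0.352 CPM (SD, n = 4 each), with a log2 fold change of 1.50 (SE 0.58, unadjusted p = 0.0303, adjusted p = 1.0 in edgeR). Its counts were 34, 10, 8 and 57 in WT and 90, 105, 78 and 88 in KO.

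With DESeq2 and sex as a covariate, *Col6a5* had a log2 fold change of 1.84 and an adjusted p of 0.0920, and in edgeR with sex an adjusted p of 0.605. The sign was the same in 16 of 16 other fits, with an unadjusted p under 0.05 in 10 of them. Leaving out WT 1, WT 2, WT 3, KO 1 or KO 2 raised the unadjusted p in edgeR to between 0.0504 and 0.0646. Without WT 4 the log2 fold change was 2.23 (unadjusted p = 0.00261, edgeR).

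The high level in WT 4 lay mostly on another transcript. Of its counts, 44.8 were assigned to a protein-coding transcript of 8046 bases that had 0.0 counts in the other 7 mice. The transcript of 9289 bases had 34, 10, 8 and 12.2 counts in WT and 90, 105, 78 and 88 counts in KO. On it, each KO mouse had more counts than each WT mouse, with totals of 64.2 in WT and 361.0 in KO, not scaled to library size. This split is an estimate of Salmon, was examined after the values were seen and was not tested. As TPM of the whole gene, WT 4 at 0.2089 lay above KO 3 at 0.1535 and KO 4 at 0.2019.

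*Col6a6* was measured at 0.468, 0.687, 0.192 and 0.673 CPM in WT and 0.586, 0.762, 0.504 and 0.867 CPM in KO. The groups overlapped, and the log2 fold change of 0.42 (SE 0.39, unadjusted p = 0.305, adjusted p = 1.0 in edgeR) was close to its standard error. Of the 3 neighbours, 1 was below and 1 above WT with an unadjusted p under 0.05, and 1 did not pass.

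**Figure D4:**
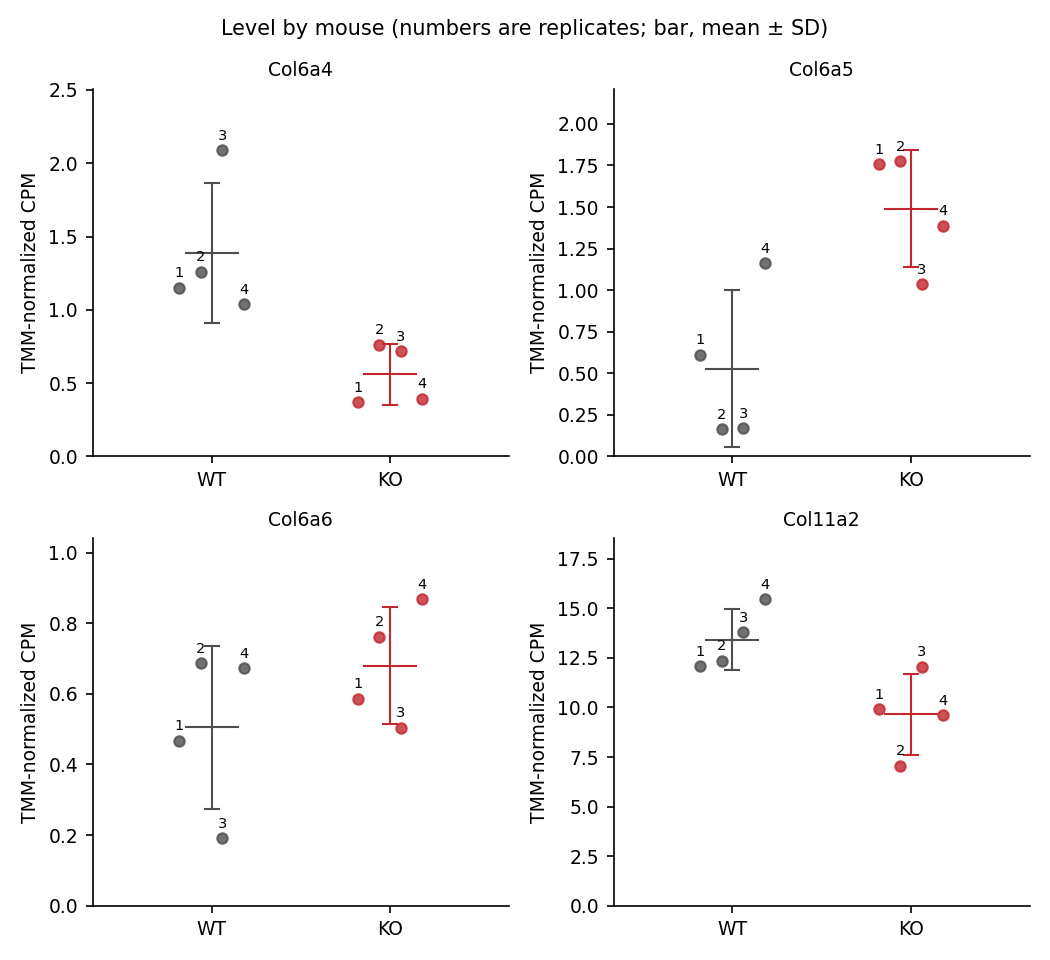
TMM-normalized CPM (y axis) of *Col6a4*, *Col6a5*, *Col6a6* and *Col11a2* in each WT (grey) and KO (red) mouse, numbered by replicate, with the mean and SD of each group. On this scale *Col6a4* and *Col11a2* do not overlap between the groups, whereas for *Col6a5* WT 4 at 1.16 CPM lies above KO 3 at 1.03 CPM.

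The classical type VI chains differed less. *Col6a1* was at 15.8, 11.1, 18.6 and 16.1 CPM in WT and 16.7, 14.2, 13.0 and 12.8 CPM in KO (log2 fold change -0.12, SE 0.16, unadjusted p = 0.479, adjusted p = 1.0 in edgeR). *Col6a2* was at 10.3, 5.96, 9.76 and 10.6 CPM in WT and 10.4, 6.89, 7.50 and 8.64 CPM in KO (log2 fold change -0.13, SE 0.20). For both chains the mice of the groups were mixed in order, with WT 2 the lowest of the 8. In females alone both had an unadjusted p under 0.05 in edgeR, with log2 fold changes of -0.32 and -0.39, and neither passed after adjustment (adjusted p = 0.844).

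*Col6a3* was at 1.08, 2.47, 1.36 and 1.41 CPM in WT and 1.27, 1.19, 1.60 and 1.77 CPM in KO (log2 fold change -0.12, SE 0.28). WT 2 was the highest mouse, and without it the log2 fold change was 0.18. Thus, the sign for this chain rested on 1 mouse.

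Of the type IV chains none had an unadjusted p under 0.05 in edgeR with all 8 mice. *Col4a1* was at 22.9, 20.8, 28.9 and 30.9 CPM in WT and 25.7, 25.3, 21.1 and 24.2 CPM in KO (log2 fold change -0.10, SE 0.14). *Col4a2* was at 23.8, 22.7, 27.1 and 29.99 CPM in WT and 24.9, 22.6, 22.3 and 21.6 CPM in KO (log2 fold change -0.18, SE 0.10, unadjusted p = 0.112 in edgeR). WT 3 and WT 4 were above every KO mouse for both chains. WT 1 lay among the KO mice, and WT 2 lay just below them for *Col4a1* and among them for *Col4a2*. Without WT 2 the log2 fold change of *Col4a2* was -0.24 (unadjusted p = 0.0398, adjusted p = 0.989 in edgeR).

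*Col4a6* had the largest difference of the class. It was measured at 0.522, 0.982, 1.09 and 0.836 CPM in WT and 0.527, 0.829, 0.424 and 0.520 CPM in KO (log2 fold change -0.57, SE 0.30, unadjusted p = 0.0922, adjusted p = 1.0 in edgeR). WT 1 was as low as KO 1 and KO 4, and the other 3 WT mice were above all KO mice. Without WT 1 its log2 fold change was -0.75 (unadjusted p = 0.0305) and without KO 2 it was -0.80 (unadjusted p = 0.0292), with an adjusted p of 1.0 in edgeR in both.

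*Col4a5*, which is encoded beside *Col4a6* and pairs with it, was at 1.85, 2.03, 2.15 and 2.61 CPM in WT and 1.76, 2.57, 2.21 and 1.99 CPM in KO, with a log2 fold change of -0.018 (SE 0.17). *Col4a3* was at 0.288, 0.180, 0.298 and 0.347 CPM in WT and 0.273, 0.406, 0.199 and 0.221 CPM in KO (log2 fold change -0.017, SE 0.34). *Col4a4* was at 0.252, 0.393, 0.298 and 0.387 CPM in WT and 0.0781, 0.474, 0.451 and 0.363 CPM in KO (log2 fold change 0.051, SE 0.47). The mice of the groups overlapped for all 3 chains, and the sign of each turned in some of the other fits.

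Among fibrillar collagens *Col11a2* (ENSMUSG00000024330.18), a chain of the type XI collagen of cartilage fibrils, was at 12.1, 12.4, 13.8 and 15.5 CPM in WT and 9.90, 7.06, 12.1 and 9.60 CPM in KO. The lowest WT mouse, WT 1, lay just above the highest KO mouse, KO 3. As TPM the groups overlapped, with KO 3 at 3.019 above WT 1 at 2.823 and WT 3 at 2.851. The means were 13.4 ± 1.55 and 9.65 ± 2.05 CPM (SD, n = 4 each), and the log2 fold change was -0.47 (SE 0.16, unadjusted p = 0.0176, adjusted p = 1.0 in edgeR). It had 417 to 909 counts per mouse, far more than *Col6a4* or *Col6a5*. The sign was the same in 17 of 17 other fits and the unadjusted p stayed under 0.05 in 16, the exception being the fit without WT 4 (unadjusted p = 0.0515, edgeR).

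The other leading fibrillar collagens varied more between mice. *Col1a2* was at 4.93, 12.7, 11.4 and 13.0 CPM in WT and 6.76, 11.8, 9.88 and 6.75 CPM in KO (log2 fold change -0.25, SE 0.31). *Col1a1* was at 1.94, 5.16, 2.84 and 6.95 CPM in WT and 2.99, 2.96, 5.30 and 4.89 CPM in KO (log2 fold change -0.063, SE 0.39). WT 1 was the lowest mouse for both and WT 4 the highest. Leaving out WT 4 gave *Col1a1* a log2 fold change of 0.29.

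The remaining tested fibrillar genes, *Col3a1*, *Col5a1*, *Col5a2*, *Col5a3*, *Col11a1* and *Col27a1*, lay between -0.29 (*Col5a2*) and 0.034 (*Col5a1*). With all 8 mice none had an unadjusted p under 0.05, and without WT 2 *Col5a2* did (log2 fold change -0.42, unadjusted p = 0.0433, adjusted p = 0.989 in edgeR). *Col2a1*, the cartilage collagen, was at 0.0982 to 0.426 CPM in all 8 mice and was not tested.

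Collagens of the other classes had an unadjusted p above 0.05 in edgeR with all 8 mice. *Col25a1* was at 54.1, 52.5, 38.6 and 49.0 CPM in WT and 50.3, 84.3, 52.1 and 55.5 CPM in KO (log2 fold change 0.32, SE 0.18, unadjusted p = 0.112 in edgeR). KO 2 stood above the 7 others, and without it the log2 fold change was 0.12. In females alone it was 0.57 (unadjusted p = 0.0305, adjusted p = 0.844 in edgeR). *Col9a2* was at 11.3, 8.30, 8.65 and 7.01 CPM in WT and 11.9, 9.89, 10.8 and 7.96 CPM in KO (log2 fold change 0.20, SE 0.17). The order of the mice was mixed between the groups.

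*Col9a3*, whose exons overlap those of *Tcfl5*, was at 7.14, 8.84, 7.74 and 10.1 CPM in WT and 8.26, 7.82, 9.15 and 9.51 CPM in KO (log2 fold change 0.038, SE 0.13). The 7 other FACITs lay between -0.44 (*Col19a1*) and -0.019 (*Col16a1*). The multiplexins *Col15a1* and *Col18a1*, basement membrane collagens whose ends can be cleaved off as endostatins, were at 0.24 (SE 0.31) and -0.27 (SE 0.24). Without WT 4, the highest mouse for *Col15a1*, its log2 fold change was 0.62 (unadjusted p = 0.0199, adjusted p = 1.0 in edgeR). *Col8a1* and *Col8a2*, short chain collagens of vessel wall and cornea, were at 0.28 (SE 0.32) and 0.050 (SE 0.25).

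Variation between mice of the same genotype was large for several members. WT 4 was the highest mouse for 17 of the 41 members, including 7 of the 10 fibrillar collagens, and WT 2 for 9. WT 2 and KO 3 were the 2 highest mice for 5 members, *Col9a1*, *Col12a1*, *Col17a1*, *Col19a1* and *Col22a1*. WT 2 and KO 3 are also the mice in which the cortical and the fibroblast and meningeal markers were highest. Other pairs were the 2 highest for other members, so being the 2 highest was not particular to this pair. WT 3 and WT 4 were so for *Col2a1*, *Col4a1*, *Col4a2*, *Col5a2*, *Col11a2* and *Col18a1*. KO 3 and WT 4 were so for *Col1a1*, *Col3a1*, *Col5a1*, *Col11a1* and *Col13a1*.

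*Col19a1*, a FACIT, was at 1.03, 4.21, 0.618 and 0.714 CPM in WT and 0.781, 0.525, 2.60 and 0.930 CPM in KO. *Col12a1*, a FACIT of dense connective tissue, was at 2.05, 5.55, 2.54 and 2.83 CPM in WT and 2.30, 2.69, 4.64 and 2.46 CPM in KO. *Col22a1*, a FACIT of tissue junctions, was at 0.216, 1.44, 0.298 and 0.469 CPM in WT and 0.684, 0.322, 0.835 and 0.110 CPM in KO. For *Col12a1* and *Col19a1* the other 6 mice lay at 2.05 to 2.83 and 0.525 to 1.03 CPM, well below WT 2 and KO 3. The part of cortical or meningeal tissue in these values was not tested.

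**Figure D5:**
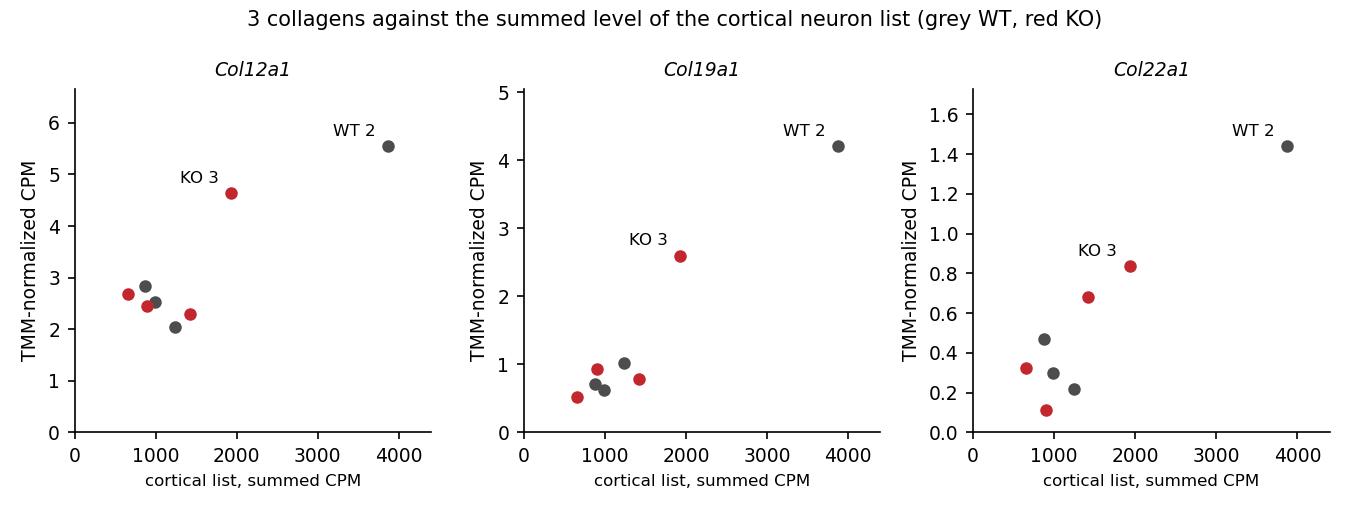
TMM-normalized CPM of *Col12a1*, *Col19a1* and *Col22a1* (y axis) against the summed CPM of the 10 cortical excitatory neuron markers (x axis), 1 point per mouse, WT grey and KO red. WT 2 at 3872 CPM and KO 3 at 1931 CPM have the highest sums of the cortical list, followed by KO 1 at 1422 CPM. The 3 genes are among the members for which WT 2 and KO 3 were the 2 highest mice, so their place on the y axis was fixed by the choice.

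The genes that work with collagens were described by list. Of 15 laminins, nidogens and basement membrane proteoglycans, 14 were below 0 with a median log2 fold change of -0.21, beside -0.00094 for all genes, and 1 had an unadjusted p under 0.05. This was *Lama2*, the laminin chain of vessel and muscle basement membranes, with means of 14.0 CPM in WT and 10.8 CPM in KO and all KO mice below all WT mice (log2 fold change -0.37, SE 0.11, unadjusted p = 0.0100, adjusted p = 1.0 in edgeR). Of 8 tested turnover genes, 3 were below 0 with a median of 0.037. *Mrc2*, the receptor that takes up cleaved collagen, had means of 4.74 and 3.09 CPM without overlap (log2 fold change -0.62, SE 0.21, unadjusted p = 0.0168, adjusted p = 1.0 in edgeR).

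Of 27 tested genes for folding, modification and processing of collagen, 17 were below 0 with a median of -0.072 and 0 had an unadjusted p under 0.05 in edgeR. The most abundant of them, *Sparc*, a collagen-binding matrix protein, was at 371 CPM in WT and 469 CPM in KO on average (log2 fold change 0.34, SE 0.48). Of 7 collagen receptors 6 were below 0 with a median of -0.080, and 0 had an unadjusted p under 0.05 in edgeR. *Ddr1*, a receptor kinase that binds collagen, was at 105 and 99.6 CPM (log2 fold change -0.080, SE 0.099). After adjustment 0 of these 57 partner genes passed in edgeR, and DESeq2 with sex called 1, *Mrc2* (adjusted p = 0.0874). An unadjusted p under 0.05 was found for 2 of the 57 in edgeR and in DESeq2, beside 1.88% and 2.22% of all genes. It was found for 6 with sex as a covariate in either tool, where the share of all genes rose too, to 6.95% in edgeR and 7.47% in DESeq2. In females alone it was found for 6 partner genes and 5 collagens, beside 5.31% of all genes, and without WT 2 for 10 partner genes, beside 3.12%.

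The promoters of the members were compared for short motifs, in the 250 bases before the start in RefSeq (GRCm38.p6), which held a promoter for 32 of the 41 members. Some members have more than 1, and all 35 promoters were counted. The GC box GGGCGG, on either strand, was in 21 of 35 collagen promoters (60.0%) and in 32.7% of all 32851 promoters. The TATA box TATAAA was in 11.4% and 12.4%, CCAAT in 34.3% and 33.8%, the SMAD element CAGAC in 45.7% and 42.2%, and GGCGCC, found in BMP-responsive elements, in 11.4% and 9.59%. A match describes the letters and is no evidence of binding.

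The promoters of *Col6a5* and *Col11a2*, which lie outside annotated exons, are printed 5′ to 3′ since these genes had an unadjusted p under 0.05, with motif matches in capitals. *Col6a5* has a GC box and *Col11a2* a TATA box and GC boxes on the other strand. For *Col11a2* the RefSeq start lies 299 bases before the first start in Gencode M21.
Col6a5, chr9:105960644-105960893, minus strand: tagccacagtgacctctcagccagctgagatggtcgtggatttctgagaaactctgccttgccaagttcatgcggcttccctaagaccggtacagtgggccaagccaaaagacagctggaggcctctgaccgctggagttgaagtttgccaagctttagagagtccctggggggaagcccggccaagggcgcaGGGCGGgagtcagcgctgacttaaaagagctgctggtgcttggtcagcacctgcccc
Col11a2, chr17:34038888-34039137, plus strand: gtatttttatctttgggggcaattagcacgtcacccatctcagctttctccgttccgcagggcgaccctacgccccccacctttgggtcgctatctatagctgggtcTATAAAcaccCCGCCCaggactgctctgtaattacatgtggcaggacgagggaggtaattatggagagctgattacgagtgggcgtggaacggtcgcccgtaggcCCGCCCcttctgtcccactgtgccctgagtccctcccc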

How the data were processed

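Polyadenylated RNA of 8 mice was sequenced by the authors, who estimated transcript abundance with Salmon against Gencode M29 of GRCm39. They deposited estimated counts per gene without normalization, and estimated counts and TPM per transcript. How transcripts were summed to genes is not given in the sources used here, nor is strandedness. Identifiers were named for 94.8% of 54307 genes, and Gencode M21 matched 97.4% of transcripts and at least 99.2% of reads, and 3 members' transcripts missed over 1 count. Counts were rounded and KO was compared with WT in edgeR 4.0.16 (R 4.3.3) with TMM, filterByExpr and the quasi-likelihood test, with Benjamini-Hochberg adjustment over 17669 genes and a threshold of 0.1. The standard error is the log2 fold change over the square root of F. TPM was summed over transcripts. Alternatives were DESeq2 1.42.0 with and without sex, its size factors, other filters, a robust fit, sex, replicate number, females alone and each mouse left out. Values per mouse were given for members with an unadjusted p under 0.05, type IV and type VI members, the 3 fibrillar and the 3 other members with the highest TPM, and *Col6a4*; *Col12a1*, *Col19a1* and *Col22a1* were added after their values were seen. The members and lists were chosen with earlier results of these data known. The fits were tested on simulated data. Depth, 47887437 to 74482334 counts, limits members under 1 CPM.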

Additional observations from a re-analysis of the deposited data

Results flagged for a closer look

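*Col25a1*, the transmembrane collagen of neurons, was flagged because KO 2, at 84.3 CPM, lay far from the other KO mice, whose highest was 55.5 CPM. The gap made up 0.848 of the range of the KO group, above Dixon's critical value of 0.829 for 4 samples. Of 44 groups of mice looked at, 1 was past this value (2.27%), and chance gives about 1 in 20.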

How the results depend on the processing

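DESeq2 with sex called 1 collagen and 1 partner gene, against 0 and 0 in edgeR without it. Below an unadjusted p of 0.05 were 6 partner genes with sex as a covariate in edgeR, 6 in DESeq2 with sex and 6 in females alone, against 2, and 5 collagens in females alone, against 3. The share of all genes rose as well, from 1.88% in edgeR to 6.95%, 7.47% and 5.31%. Leaving out 1 mouse gave 2 to 10 partner genes, 10 without WT 2 and 5 without WT 1, and 2 to 4 collagens. Without WT 2 the share of all genes was 3.12%. That share was not taken for the other mice left out, so those counts have nothing to be set against. Leaving out 1 mouse moved the medians of all 3 classes by over 1.5 times, to between -0.34 and -0.053 for fibrillar, -0.19 and 0.039 for type IV, which turned without WT 4, and -0.13 and -0.034 for type VI collagens. The log2 ratio of the summed class ranged from -0.42 to -0.16 for fibrillar and -0.21 to -0.054 for type IV collagens. That of type VI collagens was -0.096 as CPM, -0.21 to -0.033 with 1 mouse left out, and -0.32 as TPM, in which *Col6a4*, with short transcripts, weighs more.

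Signs turned for members near 0. *Col4a3* had a log2 fold change of 0.13 with sex in edgeR and in DESeq2, and *Col4a5* 0.021 in both. In females alone the values were 0.013 for *Col4a3*, 0.053 for *Col4a5*, 0.014 for *Col1a1*, 0.21 for *Col6a3* and -0.0057 for *Col9a2*. With 1 mouse left out, *Col4a3* ranged from -0.27 to 0.11, *Col4a4* from -0.14 to 0.36, *Col4a5* from -0.12 to 0.086, *Col1a1* from -0.30 to 0.29, *Col6a3* from -0.26 to 0.18 and *Col9a3* from -0.034 to 0.14. The cause was not tested.

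With the replicate block, 0 collagens were called and 3 had an unadjusted p under 0.05, as without it, and *Col1a1* was at 0.046 and *Col4a4* at -0.11. Same-numbered WT and KO mice correlated by 0.08, -0.22, -0.22 and 0.27 in their deviations from the group means. Of the WT mice, WT 4 alone correlated best with the KO mouse of its own number. No pairing by number was seen in these values, which cannot exclude one, since differences between single mice can hide it.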
